A study of Mus musculus with 35 samples.

Results

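Long non-coding RNA (lncRNA) genes are annotated across the mouse genome, many of them far from any protein-coding gene. The 491 peaks described here are those NELFA ChIP-seq peaks whose summit, the base of highest enrichment, lay within 1 kb of the annotated start or end of a RefSeq lncRNA gene and over 5 kb from the start or end of every protein-coding gene. They were chosen by position alone, on the 17 autosomes other than 6 and 8, from 40484 peaks on those chromosomes and 59485 in the whole list. A start or end of a gene is called a boundary below, and the 491 peaks are called lncRNA-boundary peaks.

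The peaks came from E14 mouse embryonic stem cells kept in serum, LIF and 2i, in which Strep-HA-tagged NELFA had been switched on from a Dox-inducible construct with 0.4 µg/ml doxycycline for 16 h. Chromatin was fixed with formaldehyde, sonicated and precipitated through the HA tag. Of the 35 libraries in the study, 7 were from this experiment. The precipitations were 4, of which 3 used HA antibody 1 and 1 used HA antibody 2, against 3 inputs, from 3 replicates. All 7 came from induced cells, so binding of tagged NELFA cannot be told apart from antibody signal unrelated to the tag. The tagged protein was expressed from the inducible construct, so the peaks are those of induced, tagged NELFA. The 20 RNA-seq and 8 ATAC-seq libraries are not analysed here.

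All libraries are represented by 1 list of peaks, with no value per library. The read depth is unknown. No difference below was tested, because peaks and genes are not replicates. Medians carry 95% intervals over peaks, and shares carry 95% Wilson intervals, which cover counting error only.

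NELF, of which NELFA is a subunit, is a protein complex that holds RNA polymerase II shortly after it has begun transcription. It acts with DSIF, and the kinase P-TEFb releases the paused polymerase. Pausing has been studied mostly at protein-coding promoters, many of which lie in CpG-rich DNA, but lncRNA genes are also transcribed by RNA polymerase II. Some lncRNA genes carry small nucleolar RNAs (snoRNAs) in their introns, and others, such as Malat1 and Neat1, make abundant RNAs that stay in the nucleus.

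The start windows of 7 lncRNA genes are printed as examples, chosen after their values were seen, of starts rich and poor in CpG that have a peak. Each is the RefSeq sequence of the GRCm38.p6 build, which mm10 names, from 250 bases before the annotated start to 50 bases into the gene, read 5′ to 3′ on the gene's own strand. Capitals mark CG dinucleotides. Snhg5, Snhg15 and Dancr are snoRNA hosts, Chaserr lies beside Chd2 and is known in mouse as a regulator of it, and B330016D10Rik had the strongest lncRNA-boundary peak at a CpG-rich start outside peak-dense windows. Malat1 had the highest fold of any lncRNA gene with a given name. Gm41331 is a predicted gene with a strong peak at a CpG-poor start.
B330016D10Rik, chr4:141545912-141546211, plus strand: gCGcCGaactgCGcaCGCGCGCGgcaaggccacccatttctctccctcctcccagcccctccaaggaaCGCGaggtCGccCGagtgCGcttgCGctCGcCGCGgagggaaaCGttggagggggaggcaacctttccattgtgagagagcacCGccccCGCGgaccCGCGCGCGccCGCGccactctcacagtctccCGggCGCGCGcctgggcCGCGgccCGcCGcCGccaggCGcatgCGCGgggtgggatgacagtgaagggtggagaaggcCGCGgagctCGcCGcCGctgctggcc
Dancr, chr5:74092810-74093109, plus strand: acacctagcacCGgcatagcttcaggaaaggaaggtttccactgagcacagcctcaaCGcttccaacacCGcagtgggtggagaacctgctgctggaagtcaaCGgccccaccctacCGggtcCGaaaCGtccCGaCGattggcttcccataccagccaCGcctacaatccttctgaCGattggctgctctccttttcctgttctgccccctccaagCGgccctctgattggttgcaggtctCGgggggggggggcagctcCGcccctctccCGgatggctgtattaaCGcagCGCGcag
Snhg15, chr11:6528711-6529010, minus strand: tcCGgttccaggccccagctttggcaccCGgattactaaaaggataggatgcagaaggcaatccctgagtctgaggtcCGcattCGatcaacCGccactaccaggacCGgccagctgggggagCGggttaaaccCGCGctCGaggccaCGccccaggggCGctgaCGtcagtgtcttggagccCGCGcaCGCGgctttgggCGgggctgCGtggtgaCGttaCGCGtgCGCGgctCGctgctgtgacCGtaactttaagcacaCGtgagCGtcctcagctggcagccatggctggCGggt
Snhg5, chr9:88522848-88523147, minus strand: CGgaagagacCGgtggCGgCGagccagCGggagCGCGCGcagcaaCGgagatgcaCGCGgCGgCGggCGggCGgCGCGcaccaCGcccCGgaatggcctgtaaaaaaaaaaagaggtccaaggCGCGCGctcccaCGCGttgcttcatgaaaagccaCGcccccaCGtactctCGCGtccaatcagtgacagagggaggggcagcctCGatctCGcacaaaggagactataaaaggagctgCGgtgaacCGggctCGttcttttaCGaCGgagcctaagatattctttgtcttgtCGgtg
Chaserr, chr7:73558346-73558645, minus strand: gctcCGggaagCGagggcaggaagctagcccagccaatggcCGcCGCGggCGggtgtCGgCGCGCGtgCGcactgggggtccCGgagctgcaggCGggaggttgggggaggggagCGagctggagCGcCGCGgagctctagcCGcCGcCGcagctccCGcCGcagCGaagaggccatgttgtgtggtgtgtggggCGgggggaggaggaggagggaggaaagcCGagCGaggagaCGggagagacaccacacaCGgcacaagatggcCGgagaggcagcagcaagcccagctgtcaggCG
Malat1, chr19:5802623-5802922, minus strand: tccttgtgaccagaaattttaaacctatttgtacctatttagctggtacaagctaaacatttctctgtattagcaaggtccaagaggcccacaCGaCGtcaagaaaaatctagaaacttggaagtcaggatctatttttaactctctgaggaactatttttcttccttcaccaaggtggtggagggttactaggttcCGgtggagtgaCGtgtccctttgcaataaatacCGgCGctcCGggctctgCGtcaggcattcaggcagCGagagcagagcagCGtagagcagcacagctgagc
Gm41331, chr15:60141576-60141875, plus strand: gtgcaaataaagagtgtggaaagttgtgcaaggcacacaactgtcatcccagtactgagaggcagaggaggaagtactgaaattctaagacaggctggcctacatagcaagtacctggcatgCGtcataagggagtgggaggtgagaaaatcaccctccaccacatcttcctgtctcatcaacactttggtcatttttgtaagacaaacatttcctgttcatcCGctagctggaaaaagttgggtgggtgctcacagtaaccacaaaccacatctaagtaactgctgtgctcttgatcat

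A start was called CpG-rich when the window's ratio of observed to expected CpG was at least 0.6 and its GC content at least 50%. B330016D10Rik had 43 CpG in its window, a GC content of 74.3% and a CpG ratio of 1.04. The Snhg5 window held 36 CpG at a ratio of 1.26, and that of Chaserr 30 CpG at 72.3% GC. Snhg15 had 29 CpG and Dancr 18, so all 5 counted as CpG-rich. Malat1 had 10 CpG, a ratio of 0.604 and 47% GC, so it met the rule on the ratio and missed the rule on GC. The Gm41331 window held 2 CpG.

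Most lncRNA-boundary peaks were modest. Fold enrichment, a deposited ratio of precipitated signal to background at each peak, had a median of 2.27 (95% interval 2.18 to 2.31) over the 491 lncRNA-boundary peaks, with quartiles of 2.00 and 2.90, against a median of 2.18 over all 40484 peaks of the same chromosomes. A fold of at least 3 was reached by 117 of the lncRNA-boundary peaks, or 23.8% (20.3 to 27.8), against 16.4% of all peaks. A fold of at least 5 was reached by 23 lncRNA-boundary peaks, or 4.68%, against 1253 of all 40484 peaks. A fold of at least 10 was reached by 2 lncRNA-boundary peaks, and the count at that level over all peaks was not taken. The highest fold was 11.5 among lncRNA-boundary peaks and 27.3 among all peaks. The median width was 193 bp in the lncRNA-boundary peaks and 193 bp in all peaks.

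Fold also varied with where the peaks lay. A 1 Mb window holding 30 or more peaks is called dense below. Dense windows held 291 lncRNA-boundary peaks, or 59.3% (54.9 to 63.5), against 47.2% of all peaks. The median fold in dense windows was 2.31 in lncRNA-boundary peaks, against 2.27 in all peaks there, and a fold of at least 3 was reached by 28.2% (23.3 to 33.6), against 21.2% of all peaks. Outside them the 200 lncRNA-boundary peaks had a median fold of 2.13 (2.09 to 2.22), against 2.09 for all 21391 peaks. A fold of at least 3 was reached there by 17.5% (12.9 to 23.4) of lncRNA-boundary peaks, against 2576 of those 21391 peaks.

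Median folds of the peak classes at genes lay close together. Against the 2.27 of lncRNA-boundary peaks, peaks at lncRNA boundaries with a coding boundary within 5 kb had a median fold of 2.18 (n = 474), as did peaks at protein-coding boundaries (n = 3302). Outside dense windows the share with a fold of at least 3 was 17.5% in lncRNA-boundary peaks, against 12.5% (9.38 to 16.5) at lncRNA boundaries near coding genes and 10.8% (9.56 to 12.3) at coding boundaries.

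The 491 peaks fell at 300 lncRNA genes. One peak was found at 194 of these genes and several at 106, while 56 genes had peaks at both ends. Merging neighbours under 5 kb apart left 312 loci, of which 210 were single peaks and the longest held 7. The median distance from a lncRNA-boundary peak to the nearest coding boundary was 22116 bp, and 74 peaks lay over 100 kb from any. Even so, 122 peaks (24.8%) lay inside the body of a protein-coding gene, far from its ends, and 369 lay between coding genes. A gene of another kind lay within 1 kb of 33 lncRNA-boundary peaks, a pseudogene in 18 cases, a tRNA gene in 4 and a snoRNA gene in 3. The RefSeq promoter table lists an alternative start of a coding gene within 1 kb of 9 lncRNA-boundary peaks. Examples are that of Tasor beside Gm52095 and, chosen after its values were seen, that of Tlk2 beside 1700052K11Rik. These 9 were kept, since the rule uses the outer boundaries of coding genes. Shares over all peaks were not computed for coding gene bodies, genes of other kinds or alternative starts. The counts of lncRNA-boundary peaks at them are therefore descriptions only.

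Predicted genes supplied most of the peaks. By the nearest gene, 386 peaks were at Gm models, 66 at Riken clones, 13 at LOC models and 26 at lncRNA genes with given names.

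Peaks at these boundaries were uncommon. Of the 9558 lncRNA genes with a boundary over 5 kb from coding genes, 299 had such a peak, a background of 3.13% (2.80 to 3.50). Outside dense windows it was 167 of 8832, or 1.89%, against 18.2% (132 of 726) inside them. Protein-coding genes had a peak within 1 kb of a boundary more often, at 3008 of 18496 genes, or 16.3%, and 14.3% outside dense windows. Of the lncRNA genes with both boundaries near coding genes, 14.1% (199 of 1409) had a peak.

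Windows just outside the same lncRNA genes held summits at least as often as their boundaries did. For the 6267 lncRNA genes with no coding boundary within 12 kb, the boundary windows held a summit at 187 genes, or 2.98% (2.59 to 3.43), against 233 genes, or 3.72% (3.28 to 4.22), in windows of the same size 5 to 7 kb outside. Outside dense windows the shares were 1.93% (1.61 to 2.32) at boundaries and 2.61% (2.23 to 3.05) in the outer windows. At genes shorter than 2 kb the boundary windows overlap and so cover less DNA than the outer windows. Boundary windows also lie partly inside the gene, and the outer windows wholly outside it. The part of these differences in the shares was not tested. As a class, isolated lncRNA boundaries held summits at a lower share than the outer windows, with intervals that overlap. Genes with given names went the other way, with summits at the boundary of 13 of 166 genes, or 7.83% (4.63 to 12.9), against 8 of 166, or 4.82% (2.46 to 9.22), in the outer windows. Those intervals overlap widely.

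**Figure D1:**
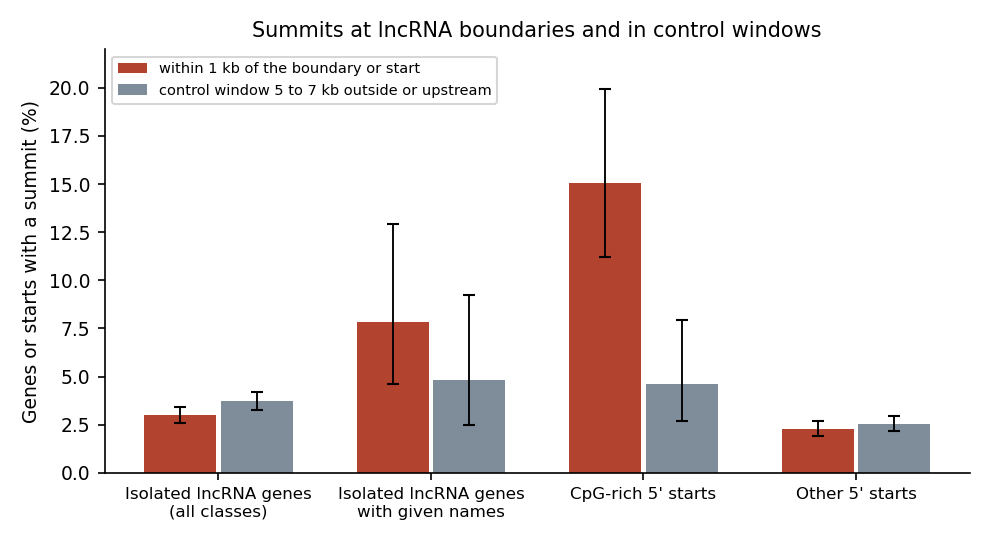
Share of isolated lncRNA genes, or of lncRNA 5′ starts, with a NELFA summit within 1 kb (left bar of each pair) and in control windows 5 to 7 kb away (right bar), with 95% Wilson intervals. CpG-rich starts stand at 15.1%, against 4.63% in their control windows, while the pairs for all isolated genes and for other starts lie within 1 percentage point of each other.

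Base composition of the start separated occupied from unoccupied lncRNA genes more than the lncRNA class did. Strand and start windows were available for 6025 lncRNA starts over 5 kb from coding boundaries. None was on chromosome 18, so its 16 lncRNA-boundary peaks enter no result by 5′ or 3′ end or by base composition. Of these starts 2.84% had a summit within 1 kb, against 2.62% with a summit in control windows 5 to 7 kb upstream, and 1.33% had one within 250 bp. Among the 259 CpG-rich starts, 39 had a summit within 1 kb, or 15.1% (11.2 to 19.9), against 132 of 5766 other starts, or 2.29% (1.93 to 2.71). Control windows of the same size upstream had summits at 4.63% (2.67 to 7.92) of CpG-rich starts and 2.53% (2.16 to 2.97) of other starts. The interval at CpG-rich starts thus lay above both control intervals, and that at other starts overlapped its own. These control windows may lie near a coding boundary, since the starts need only be over 5 kb from one. Those of the isolated genes could not, so the 2 kinds of control differ.

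Close to the start the contrast was wider as a ratio, though narrower in percentage points. Within 250 bp, 10.8% of CpG-rich starts had a summit, against 0.902% of other starts. It was also present outside dense windows, where 26 of 220 CpG-rich starts, or 11.8% (8.19 to 16.8), had a summit within 1 kb, against 60 of 5316 other starts, or 1.13% (0.878 to 1.45). Where no listed coding start lay within 1 kb, the shares were 15.9% (34 of 214) at CpG-rich starts and 2.27% (130 of 5720) at other starts. The strength of the peaks differed little, with a median fold of 2.36 at occupied CpG-rich starts and 2.34 at other occupied starts. The rule joins GC content and CpG ratio, and their separate parts in these shares were not tested.

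The occupied CpG-rich starts belonged to 23 Gm models, 11 Riken clones and 5 genes with given names, which were Dancr, Chaserr, Snhg5, Rab10os and Snhg15. Their folds ran between 1.82 and 11.5. Gm13165 was highest at 11.5, and B330016D10Rik followed at 3.72. Gm20110 at 3.36, 2700038G22Rik at 3.31 and B930059L03Rik at 3.09, chosen after their values were seen, were the next with a summit within 250 bp of the start, outside dense windows and without a coding start nearby.

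Read the other way, the starts with a nearby summit were richer in CpG. Outside dense windows the 39 starts with a summit within 250 bp had a median CpG ratio of 0.623 and a median GC content of 53%, against 0.216 and 47% for 5450 starts with no summit within 1 kb. CpG-rich starts made up 48.7% of the starts with a summit and 3.56% of those without. With a summit anywhere within 1 kb (n = 86) the median ratio was 0.429 and the CpG-rich share 30.2%, and with a summit within 250 bp over all windows (n = 80) they were 0.366 and 35%. Over all 32851 promoters of the RefSeq table the CpG-rich share was 33.5%.

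Short motifs were searched on both strands of the same windows. The GC box, GGGCGG, which itself contains a CpG, was present in 41.0% of the 39 starts with a close summit outside dense windows, against 8.64% of starts without a summit and 35.7% of all promoters. The CCAAT box, CCAAT, was present in 53.8% of starts with a summit, against 35.7% of those without and 37.4% of all promoters. The TATA box, TATAAA, was found in 1 of the 39 starts with a summit, against 17.7% of those without and 13.6% of all promoters. These shares depended on which starts were counted. Within 250 bp over all windows, 8 of 80 starts (10%) held the TATA box, 31.2% the GC box and 47.5% the CCAAT box. Within 1 kb outside dense windows, 10 of 86 starts (11.6%) held the TATA box, 25.6% the GC box and 43 of 86 the CCAAT box. The ETS motif CCGGAAG, the cyclic AMP response element TGACGTCA and the YY1 motif AAGATGGCG also contain a CpG. They were found in 2, 1 and 1 of the 39 starts, and in 146, 40 and 22 of the 5450 starts without a summit. Of all 32851 promoters, 2910, 588 and 461 held them. Among the printed windows, Dancr, Snhg5, Snhg15, Chaserr and B330016D10Rik held a GC box, and Dancr, Snhg5 and Chaserr a CCAAT box. Snhg5 also held a TATA box and Snhg15 the cyclic AMP response element, whereas Malat1 and Gm41331 held none of the searched letters.

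The 5′ ends of lncRNA genes carried more of the peaks than the 3′ ends. Strand was known for 397 lncRNA-boundary peaks, and 245 of them, or 61.7% (56.8 to 66.4), lay nearer the 5′ end. Outside dense windows this share was 68.6% (105 of 153, 60.9 to 75.4), against 57.4% (140 of 244) inside them. Peaks at genes with given names were nearer the 5′ end in 18 of 21 cases. Coding-boundary peaks were nearer the 5′ end in 92.6% (1518 of 1639, 91.2 to 93.8) outside dense windows, a share whose interval lies above that of the lncRNA-boundary peaks. Close to the boundary, within 250 bp, 82 lncRNA-boundary peaks lay at 5′ ends and 36 at 3′ ends. Summits fell on the gene side of the boundary in 48.5% (44.1 to 52.9) of lncRNA-boundary peaks, against 69.9% (68.3 to 71.5) of coding-boundary peaks.

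Counts along the boundaries showed how small this concentration was. Boundaries over 10 kb from coding genes and outside dense windows were lined up by strand, and summits were counted in bins of 250 bp. At 5027 5′ boundaries the central 1 kb held a mean of 13.2 summits per bin, against 9.71 per bin beyond 2 kb. The flanks were unequal, with 13.2 per bin upstream and 6.17 inside the gene. The central count therefore equalled the upstream flank and was higher than the count inside the gene. Single bins in the flanks ranged between 3 and 22 summits, so the central bins lie within the flank's range. At 5295 3′ boundaries the centre held 5.5 summits per bin, against 9.08 beyond 2 kb, where the flanks were again unequal, with 6.58 per bin inside the gene and 11.6 downstream. The centre was therefore close to the flank inside the gene.

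**Figure D2:**
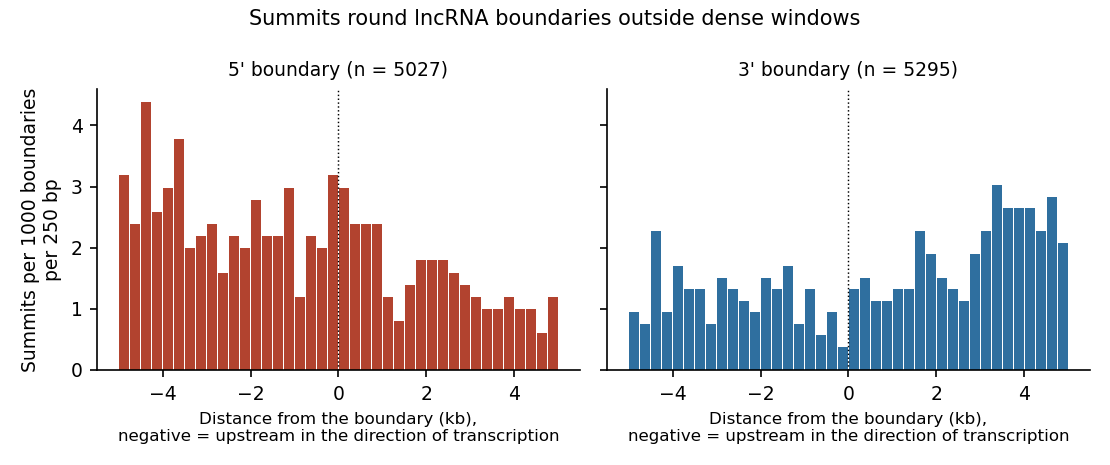
NELFA summits per 1000 lncRNA boundaries in 250 bp bins, by distance from the boundary in kb, for 5′ boundaries (left) and 3′ boundaries (right) outside dense windows. At the 5′ end the counts are as high at the boundary as upstream and lower inside the gene, and at the 3′ end they are lower at the boundary than downstream.

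Known lncRNA genes were read against the 3.13% of all such lncRNA genes. The groups were compiled from textbook knowledge with earlier results of these data known, so their counts are descriptions. Of the snoRNA and snRNA host genes, 8 had a boundary over 5 kb from coding genes, and 5 of them had a lncRNA-boundary peak. Dancr, whose RNA is known for keeping progenitor cells undifferentiated, had a fold of 2.86 and a summit 94 bp inside its 5′ end. Snhg5, in a dense window of 45 peaks, had 2.59 with a summit 41 bp inside its 5′ end. Snhg15 had 2.09 with a summit 6 bp inside its 5′ end. Snhg17 had 2.04 with a summit 79 bp inside its 5′ end, and Snhg4 had 2.18 with a summit 29 bp inside its lower-coordinate boundary. All 5 summits thus lay within 94 bp of a boundary and on the gene side of it, with modest folds.

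Snhg11, Snhg14 and Snhg20 had no lncRNA-boundary peak. Snhg14, the very long imprinted host of the Prader-Willi snoRNA clusters on chromosome 7, held 208 summits between its boundaries, the strongest with a fold of 10.8, but none within 1 kb of either boundary. The other 13 host genes lie close to coding genes and so fall outside the rule. For comparison, 10 of those 13 had a peak at a boundary, against 14.1% (199 of 1409) of all lncRNA genes with both boundaries near coding genes, and the 10 included Snhg9 at a fold of 4.58, Snhg1 at 4.40, Snhg3 at 4.27 and Gas5, a growth-arrest transcript, at 2.90. Their peaks cannot be told apart from those of the neighbouring coding genes.

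The group labelled nuclear and widely expressed had lncRNA-boundary peaks at 3 of 12 genes. This label is loose, since not every gene in the group is known to be both, and 3 of 12 is no rate for such genes. Malat1, whose RNA gathers in nuclear speckles, had a fold of 6.54 (−log10 q of 64.7) in a peak of 528 bp, with its summit 37 bp inside the 5′ end at chr19:5802635. A second Malat1 peak, 587 bp inside the same end, had a fold of 2.04. Neat1, the scaffold RNA of paraspeckles, had a fold of 3.22 with a summit 5 bp inside its higher-coordinate boundary and 5499 bp from a boundary of the coding gene Frmd8. Norad, known for binding Pumilio proteins, had 2.22. The other 9 had no lncRNA-boundary peak. Of these, Tug1 had 3 peaks of folds up to 2.77 at its boundary 375 bp from a coding boundary, which the rule leaves out, and Miat, Oip5os1, Pvt1, Trp53cor1, Meg3, Rmst, Dnm3os and Mir17hg had none at either boundary. Malat1 and Neat1 are neighbours on chromosome 19, and their 1 Mb window held 22 peaks.

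The other groups held few or none. The group labelled microRNA hosts had a lncRNA-boundary peak at 1 of 13 genes, Mir22hg, with a fold of 2.04 and a summit 296 bp upstream of its 5′ end. This label is loose too, since not every gene in the group, Mirt1 for example, is known as a microRNA host. Imprinted lncRNA genes had none at 9, among them H19, Kcnq1ot1, Airn and Meg3. Embryonic stem cell lncRNA genes, which include Tunar, Lncenc1 and the pluripotency-associated Platr genes, had none at 20. Developmental lncRNA genes such as Hotair and Bvht had none at 15. Meg3, Mir17hg and Carmn each stand in a pair of groups. A group of this size with no peak is not far from the 3.13% over all genes, and nothing is read from these zeros.

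**Figure D3:**
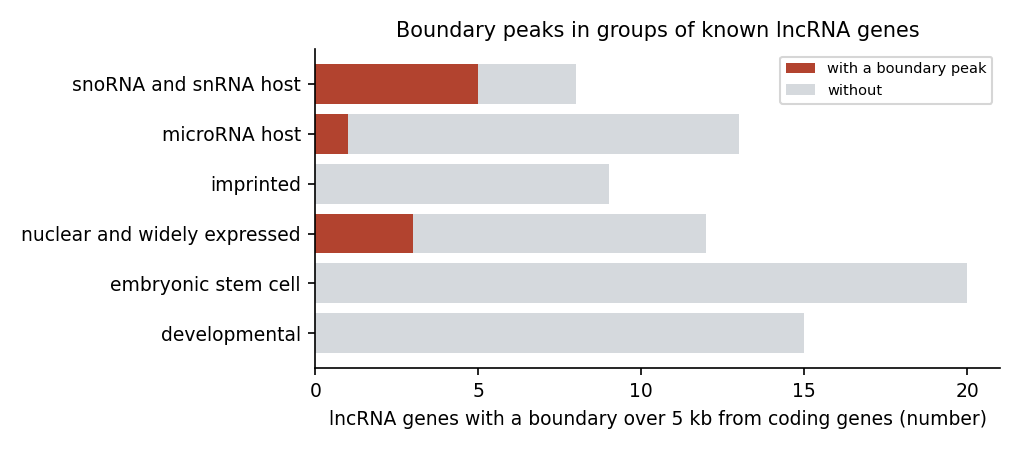
Number of known lncRNA genes with (red) and without (grey) a lncRNA-boundary peak, among those with a boundary over 5 kb from coding genes. The snoRNA and snRNA hosts have 5 of 8 genes with a peak, and the imprinted, embryonic stem cell and developmental groups have none.

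All lncRNA genes with given names had a peak at 21 of 327, or 6.42% (4.24 to 9.62), against 2.97% (230 of 7736, 2.62 to 3.38) of Gm models and 3.20% (41 of 1280, 2.37 to 4.32) of Riken clones. Besides those in the groups above, and chosen after their values were seen, they included Chaserr at a fold of 2.81 with a summit 28 bp inside its 5′ end and a weaker peak of 2.00 farther in. Chaserr lies in a window of 35 peaks. Zfp419, annotated as a lncRNA gene in the RefSeq table, had 5 peaks between 1.82 and 2.81 in a window of 182 peaks. Nell1os had 2.77, D17Ertd648e 2.50, Zfp652os 2.45 and Rab10os 2.36. Only Malat1 passed a fold of 5 among the genes with given names.

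**Figure D4:**
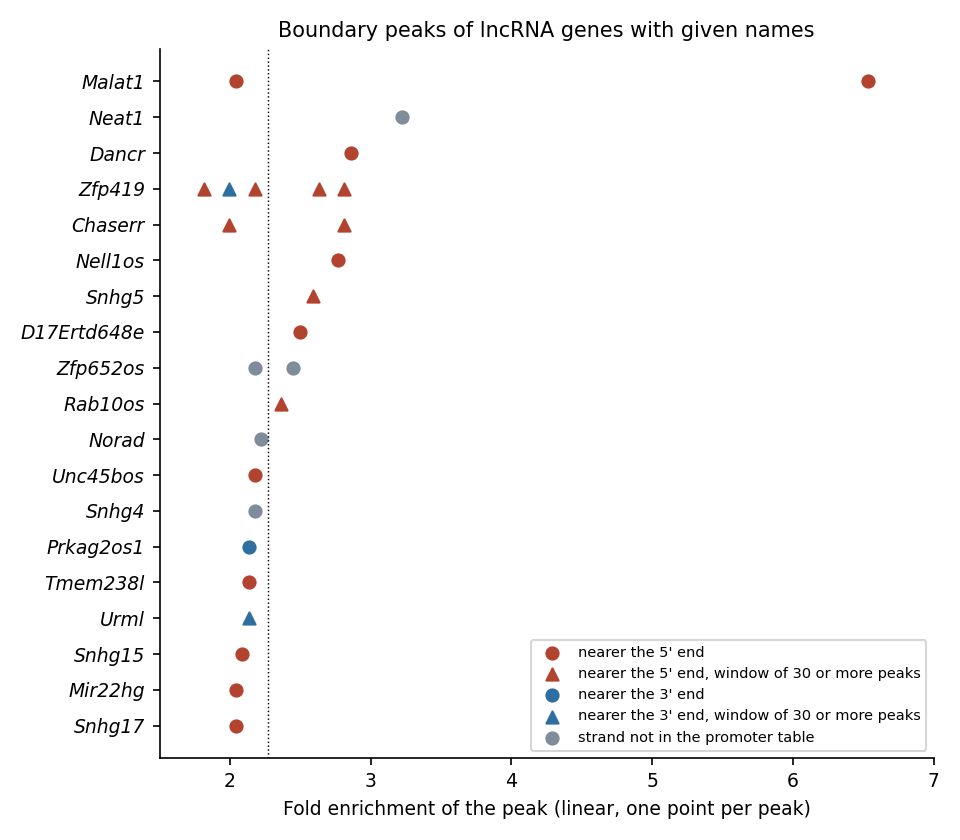
Fold enrichment of each lncRNA-boundary peak whose nearest lncRNA gene has a given name, 1 point per peak, with genes ordered by their highest peak and colours for the nearer end. The dotted line is the median of all lncRNA-boundary peaks, 2.27, and Malat1 at 6.54 stands apart from the rest, which lie at or below 3.22.

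The strongest peaks outside dense windows were mainly at predicted genes of unknown role. At Gm40034 on chromosome 2 a peak at chr2:181918541-181919115 (mm10) reached a fold of 11.4, and its summit was 150 bp beyond the 3′ end and 27802 bp from the nearest coding boundary. A second Gm40034 peak of 5.90 had its summit 813 bp inside the same end. Its −log10 q was 403, against 53.4 for peaks of about that fold elsewhere in the list, so this peak's significance was far above that usual for its fold.

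Gm51701 on chromosome 9, 37596 bp from Ccr1, had 3 lncRNA-boundary peaks. The fold was 9.54 at 618 bp before its 5′ end, 5.57 at 286 bp past its 3′ end, and 4.74 at 974 bp inside the 5′ end. Gm41331 on chromosome 15 had 9.49, in a peak of 231 bp with its summit 65 bp inside the 5′ end and 125273 bp from a coding boundary. LOC105246046 at 6.90 lies within the body of Atf7, and Gm46741 at 6.72 within that of Stam2. Both are over 1 kb wide, and neither can be assigned to the lncRNA gene rather than to the coding gene around it.

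Other strong peaks outside dense windows were those of Gm52740 at 6.31, Gm40264 at 5.76, Gm16344 at 4.72, 9430065F17Rik at 4.31 and Gm12724 at 4.13. Gm39605 followed at 3.99, Gm33248 at 3.86, Gm30521 at 3.81 and B330016D10Rik at 3.72. With Malat1 and the genes of the preceding paragraphs they make up the 15 lncRNA genes of highest fold. Of these 15, 9 had their strongest peak nearer the 5′ end, 5 nearer the 3′ end, and the strand of 1 was not in the table. Only B330016D10Rik among them had an occupied CpG-rich start.

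Inside dense windows the highest folds were at Gm13165 on chromosome 4, with a peak of 11.5 at its 5′ end and another of 5.99 that was 7957 bp wide near its 3′ end. Its window held 430 peaks, and pseudogenes lay within 1 kb of both. Gm39470 had 7.44, Gm51421 6.72, Gm41102 6.51 and Gm21847 6.45. The widest lncRNA-boundary peak, chosen after its value was seen, spanned 20987 bp at Gm40904 on chromosome 13 with a fold of 4.63. Widths of at least 1 kb occurred in 28 of the 491 lncRNA-boundary peaks, against 1933 of all 40484 peaks of the same chromosomes.

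The 14 genes with 5 or more lncRNA-boundary peaks all lay in dense windows. Gm41561 had 7, within the body of Dnah8 and in a window of 486 peaks, with folds between 1.86 and 2.68. Another 3 genes had 6, namely 1700095A21Rik at folds of 1.82 to 2.90, Gm41102 at 2.13 to 6.51, and Gm46468 at 1.91 to 3.40.

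A few chromosome segments held a large share of the lncRNA-boundary peaks. Chromosome 14 had 105, or 21.4%, of which 99 were in dense windows, and it also held 5638 of all 40484 peaks. Of its eligible lncRNA genes 7.71% had a peak, against 3.13% over the 17 chromosomes. Chromosome 13 had 55 and 2995 of all peaks, chromosome 4 had 44 and 3647, and chromosome 19 had 5 and 706. The window at 6 to 7 Mb of chromosome 14 held 25 lncRNA-boundary peaks at 11 lncRNA genes among 803 peaks, and that at 66 to 67 Mb of chromosome 13 held 21 among 417. The 11 windows with most lncRNA-boundary peaks held 166, or 33.8%, and each of them held 163 to 813 peaks of any kind. These windows held many peaks away from boundaries too, and the part of that local density in the count of lncRNA-boundary peaks was not tested.

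**Figure D5:**
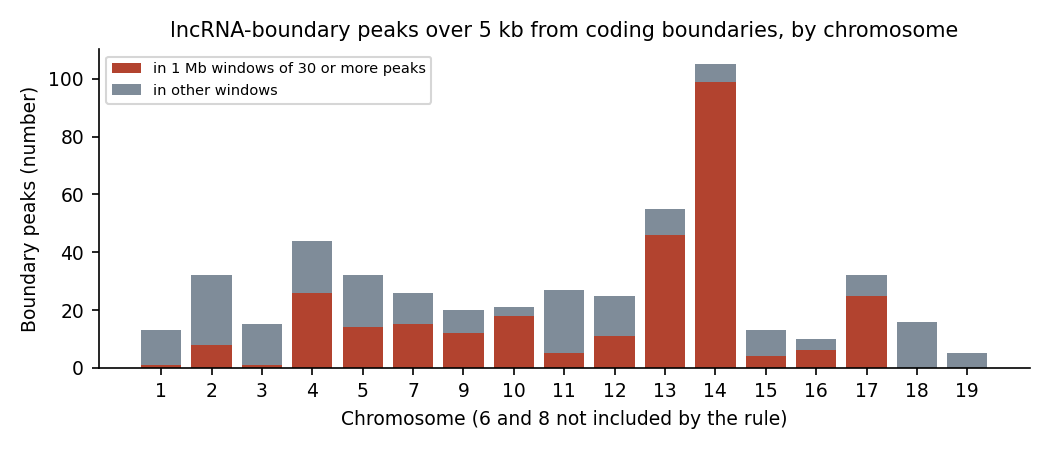
Number of lncRNA-boundary peaks on each of the 17 chromosomes, split into those in dense 1 Mb windows (red) and in other windows (grey). Chromosome 14 stands highest with 105, of which 99 are in dense windows, and it holds 5638 of all 40484 peaks.

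Peaks just inside and just outside the limits of the rule show what the limits kept and left out. The farthest lncRNA-boundary peaks from their boundary were at 998, 993 and 992 bp, with folds of 2.13 at 1700110I01Rik, 2.27 at Gm52153 and 3.81 at Gm52090. Just past the 1 kb limit, at 1005, 1006 and 1008 bp, stood Gm35817 with 2.31, Gm46467 with 2.13 and Gm46840 with 3.00. Nearest the 5 kb limit were Gm46287 at 5194 bp from a coding boundary, with a fold of 1.95, Gm40985 at 5226 bp with 1.95, and Gm52095 at 5232 bp with 3.09. Just under that limit were Gm33862 at 4996 bp with 5.20, Gm40099 at 4994 bp with 3.40, and a second Neat1 peak at 4987 bp with 2.86. The Neat1 locus is thus split by the limit, with 1 peak on each side. The closest summits to a boundary were 1 bp from 4933438K21Rik with a fold of 5.45, 2 bp from Gm51421 with 4.13, and 2 bp from Gm40055 with 2.09.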

How the data were processed

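The material was the 7 ChIP-seq libraries, represented by 1 deposited peak list. Per the submitters' processing notes, the authors used MACS2 (no version), SAMtools 1.4, Bowtie2 2.2.9 and Trim Galore 0.4.2, with mm10 as the build. Not given in the sources used here are the peak-call settings, how libraries were pooled and how reads with several alignments were treated. Peak names carry R1234 and MAPQ0, 2 tags that no source explains.

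The deposited list gives for each peak a fold enrichment, which is a linear ratio from the authors' peak caller, −log10 values of the p-value (not used) and the q-value, a score (not used) and a summit offset. Folds were used only to describe and rank peaks within the list. Depth is unknown.

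Gene boundaries came from the RefSeq table of GRCm38.p6, which gives no strand. Strand and start windows came from the RefSeq promoter table by gene ID, which matched 7145 of the 9558 lncRNA genes with a boundary over 5 kb from coding genes. Summit distances, shares with 95% Wilson intervals and medians were computed with Python 3.11.15, numpy 2.4.6, pandas 2.3.3 and scipy 1.17.1, and figures were drawn with matplotlib 3.10.9. The counting was tested on simulated data.

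The peaks, gene groups and comparisons were chosen with earlier results of these data known. Named genes are the 15 of highest fold outside dense windows, the 5 of highest fold inside them, the members of 6 groups of known lncRNA genes, those with most peaks (up to 5) and those at the limits of the rule (up to 3 each). Others are marked as chosen after their values were seen. With 5 genes allowed and ties after the leading 4, only these 4 were named for having most peaks. Alternatives changed the window, the distance from coding genes, the peak threshold, the chromosomes, the gene class and the counting of neighbours.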

Additional observations from a re-analysis of the deposited data

How the results depend on the processing

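The values rest on 1 list of pooled libraries, so no value could be checked by leaving out a library. No paired analysis was possible because 1 peak list stands for all libraries and no test was made. The cause of a changed value was not tested, beyond what each alternative changes by construction, such as fewer peaks or a wider window. The number of lncRNA-boundary peaks was 262 with a 500 bp window, 952 with a 2 kb window, 260 with a −log10 q of at least 4, 28 at genes with given names, 275 at or above the list's median fold, 200 outside dense windows and 312 as merged loci. Their median fold was 2.81 at a −log10 q of at least 4, 2.10 with chromosomes 6 and 8, 2.13 outside dense windows and 2.36 for merged loci. Median width was 348 bp at that q, 168 bp with chromosomes 6 and 8, 335 bp at or above the median fold, 162.5 bp outside dense windows and 216 bp when distance was taken from the peak's edge. The share on the gene side was 43.6% with a 2 kb window and 67.9% at genes with given names. The share of lncRNA genes with a peak was 2.04% at 500 bp, 4.81% at 2 kb, 1.85% at that q, 4.56% with chromosomes 6 and 8, 6.42% for genes with given names, 1.96% at or above the median fold and 1.89% outside dense windows. The share in dense windows was 66.2% at that q, 71.3% with chromosomes 6 and 8, 35.7% for genes with given names, 64.7% at or above the median fold, 47.8% for merged loci, and 70.3% or 52.7% where dense meant 20 or 50 peaks. The share nearer the 5′ end was 86.4% for genes with given names and 68.6% outside dense windows. Moving the distance from coding genes to 2 or 10 kb left every value within the interval or the 1.5-fold range used here.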

Other observations

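Chromosomes 6 and 8 hold 136 and 108 peaks at lncRNA boundaries over 5 kb from coding boundaries, with a median fold of 1.95 on each, and 131 and 102 of these lie in dense windows. Chromosome X holds 6 and chromosome Y 8. Among them Mirc35hg, a microRNA host on chromosome 6 chosen after its values were seen, had a fold of 2.72 with a summit 287 bp from its 5′ end. Weaker Mirc35hg peaks near the same end had folds of 2.09 and 2.04, and the window of Mirc35hg held 93 peaks. Fendrr, a developmental lncRNA on chromosome 8, had a fold of 1.91 with a summit 450 bp from its 3′ end.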
